A study of Mus musculus with 9 samples.

Results

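Mx1, Slfn4 and Trim25 are 3 interferon-inducible genes, taken by gene symbol from the 99 genes of the expression table analysed here. All 3 passed the expression minimum of 1 FPKM (sequenced fragments scaled by transcript length and by the mapped total of the library) in at least 3 libraries, as did 62 of the 99 genes. The measurement was sequencing of poly(A) RNA from mouse bone marrow cells sorted for c-Kit, a surface receptor of blood stem and progenitor cells. The 9 libraries form 3 groups of 3, with the genotypes labelled NPC, NC and WT. Per the series, the animals were controls, mice with CMML (chronic myelomonocytic leukaemia) and mice with CMML that also lacked Piezo1, a gene for a mechanosensitive cation channel, through a conditional allele. NPC is read as the knockout group, NC as the CMML group and WT as the control, from the letters of the codes, since the labels do not spell them out. The leukaemia allele, the Cre driver, any inducing agent, the strain and the age of the mice are absent from the labels read here. Nothing in the labels shows whether replicates were different animals, so p-values cover the spread among these libraries and that spread may be technical.

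Interferons are secreted in response to viral and other danger signals and act through surface receptors, JAK kinases and STAT transcription factors. STAT complexes and interferon regulatory factors (IRFs) then bind short promoter elements and switch on a broad set of antiviral genes. Blood stem and progenitor cells carry interferon receptors and respond to interferon. Mx1 encodes a dynamin-like GTPase that blocks influenza virus in the mouse nucleus, and many inbred laboratory strains carry an Mx1 allele that gives no functional protein. Slfn4 encodes a schlafen protein of mouse myeloid cells that is induced during macrophage activation and by type I interferon. Trim25 encodes an E3 ubiquitin ligase that acts with the viral RNA sensor RIG-I upstream of interferon production and is itself interferon-inducible. Mx1 is thus an effector of the response, and Trim25 a regulator of virus sensing.

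On GRCm39, as the table gives it, Mx1 (ENSMUSG00000000386) lies on the minus strand of chromosome 16 from 97248235 to 97264107 and has 9 transcripts. Their listed types include protein coding, nonsense-mediated decay, retained intron and a protein-coding loss-of-function class. Slfn4 (ENSMUSG00000000204) lies on the plus strand of chromosome 11 from 83066012 to 83081042 with 3 transcripts, and Trim25 (ENSMUSG00000000275) on the plus strand of the same chromosome from 88890202 to 88911119 with 2. All listed transcripts of Slfn4 and Trim25 are protein coding. Slfn4 stands in a cluster of similar schlafen genes, and Mx2 is closely related to Mx1. The handling of reads that match more than 1 of such genes is not stated in the labels, which leaves some uncertainty in the levels of Mx1 and Slfn4.

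The promoters of Slfn4 and Trim25 are shown because interferon acts through short promoter elements. RefSeq's promoter table (GRCm38.p6) matched these 2 of the 3 members, and nothing is drawn from them about the changes in level. Each window holds the 250 bases upstream of the start, with every GAAA and its reverse complement TTTC, the core that IRFs read, in capitals. Slfn4 is shown for chr11:83174936-83175185 and Trim25 for chr11:88999153-88999402, both on the plus strand.
Slfn4: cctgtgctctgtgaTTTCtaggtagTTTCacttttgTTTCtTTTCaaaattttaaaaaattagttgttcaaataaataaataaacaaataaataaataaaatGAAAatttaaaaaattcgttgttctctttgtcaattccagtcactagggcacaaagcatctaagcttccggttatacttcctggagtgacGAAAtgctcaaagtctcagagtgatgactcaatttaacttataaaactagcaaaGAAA
Trim25: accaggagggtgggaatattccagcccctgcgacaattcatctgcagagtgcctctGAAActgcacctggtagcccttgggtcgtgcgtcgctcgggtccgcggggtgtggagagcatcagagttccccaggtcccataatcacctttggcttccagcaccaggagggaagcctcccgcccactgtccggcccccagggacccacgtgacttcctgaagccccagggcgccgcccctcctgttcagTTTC
The Slfn4 window held 7 such cores, a number reached by 4.25% of 32841 windows of the same length, and the Trim25 window held 2, a number reached by 66.4%. The GAAA core is present in 86.4% of all windows. It was picked after the promoters were seen, so these shares are a description and not a test. The windows differ in base composition, with 29.6% G and C for Slfn4 and 63.2% for Trim25, against a median of 52.4%. The shares come from windows not matched for composition. The paired core of the interferon-stimulated response element, GAAA then any 2 bases then GAAA, was found on neither strand of either window, and 2.98% of all windows hold it. The gamma-activated sequence TTCNNNGAA was also not found, and 7.02% of all windows hold it. Matches were counted on both strands with overlaps, and any match to the paired core would also count as GAAA.

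Libraries implied 76613077 to 88424053 mapped counts, from the ratio of estimated count to FPKM, and the 99 genes took 387039 to 469541 of them. Each comparison was tested with edgeR's quasi-likelihood test over the 62 genes, with Benjamini-Hochberg adjustment and a threshold of 0.05. Between NPC and WT 64.5% of the tested genes passed, between NC and WT 51.6%, and between NPC and NC 14.5%. The 99 genes took 0.504% to 0.531% of the implied counts of a library. Shares, ranks and adjusted p-values given here thus hold for this small set and not for all expressed genes. Of the 115 genes in lists of interferon effectors, interferon signalling and the schlafen family, 2 were in the table, Mx1 and Slfn4. Trim25 was the 1 gene of the table with a numbered TRIM symbol. None of 10 stem and progenitor markers, Kit included, was analysed here, so the sort could not be checked.

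In NC against WT, Mx1 rose and Slfn4 fell slightly. Mx1 also rose in NPC against WT and was higher in NPC than in NC, and Trim25 passed the test in no comparison. The calls on Mx1 in NPC against NC and on Slfn4 were lost when certain single libraries were left out. In level, per transcript length, the order was Slfn4, then Trim25, then Mx1 in each of the 9 libraries. In the table Slfn4 ranked 8 to 10 of the 99 genes, Trim25 15 to 18, and Mx1 36 to 39 in NPC and NC libraries against 51 in WT libraries.

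**Figure D1:**
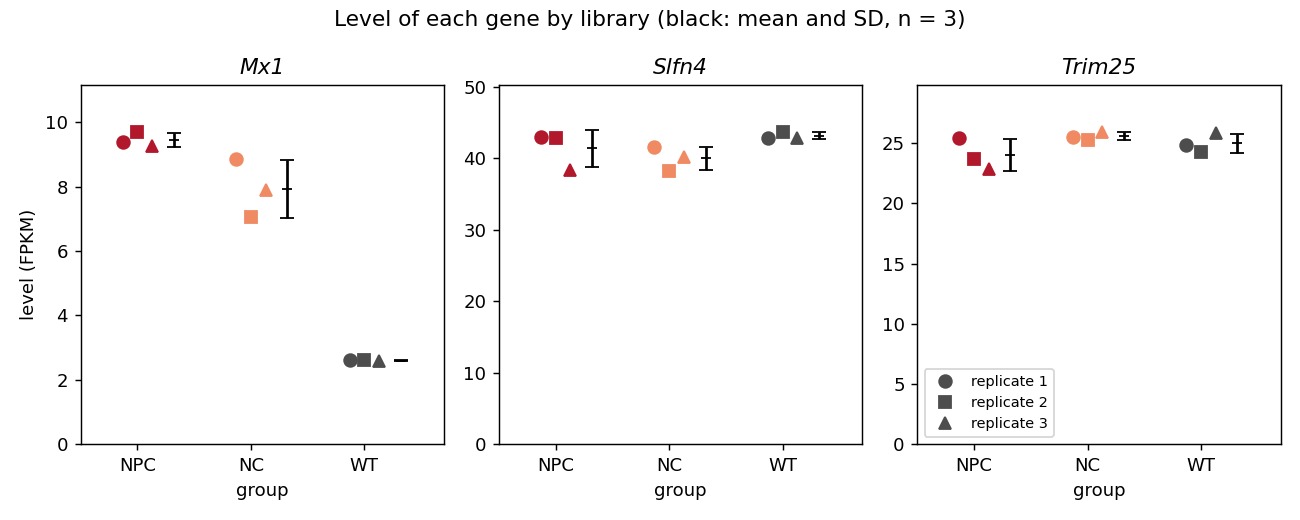
Level in FPKM (vertical axes from 0) of Mx1, Slfn4 and Trim25 in the NPC, NC and WT groups; each point is a library, shaped by replicate number, and the black bar is the mean with SD (n = 3). Mx1 lies at 9.27 to 9.70 FPKM in NPC, 7.05 to 8.84 FPKM in NC and 2.58 to 2.62 FPKM in WT, while Slfn4 and Trim25 keep close to the same level in the 3 groups.

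Mx1 stood at 9.40, 9.70 and 9.27 FPKM in NPC replicates 1 to 3, at 8.84, 7.05 and 7.91 FPKM in NC replicates 1 to 3, and at 2.62, 2.61 and 2.58 FPKM in WT replicates 1 to 3. The groups did not overlap in any pairing. All NPC libraries were above all WT libraries for 29.0% of tested genes, all NC above all WT for 27.4%, and all NPC above all NC for 11.3%. NC replicate 2 was the lowest of the 6 NPC and NC libraries. The spread was widest in NC, with a coefficient of variation of 11.3%, against 2.35% in NPC and 0.818% in WT. The 679 to 748 estimated counts behind each WT value carry a counting error of 3.75%, or 7.51% if 4 counts stand for 1 fragment. The WT libraries thus lay closer together than counting allows on average, and their SD of 0.0213 FPKM understates the error. Behind the NPC and NC values stood 2575 to 2804 and 1897 to 2631 counts.

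Against WT, Mx1 was 3.62-fold higher in NPC, at 9.46 ± 0.222 FPKM in NPC and 2.60 ± 0.0213 FPKM in WT (SD, n = 3 each). On the log2 scale the rise was 1.86 ± 0.07 (SE), with a 95% confidence interval of 1.71 to 2.01 and an edgeR adjusted p of 7.59e-22. In NC the mean was 7.93 ± 0.898 FPKM, a 3.04-fold rise over WT, with a log2 fold change of 1.61 ± 0.07 (1.45 to 1.76; edgeR adjusted p = 9.27e-20). Among the 62 tested genes these were the largest rises, where the 90th percentile of the log2 fold changes was 0.49 for NPC against WT and 0.36 for NC against WT. These comparisons share the WT libraries. Over the 21 alternatives the adjusted p for NPC against WT ran from 1.28e-127 (DESeq2) to 1.15e-08 (limma, pseudocount 0.1). For NC against WT it ran from 1.40e-94 (DESeq2) to 4.93e-08 (limma, pseudocount 0.1). With 1 library left out, the edgeR adjusted p ran from 6.77e-76 to 8.67e-13 for NPC against WT. For NC against WT it then ran from 9.25e-61 to 2.59e-12. The size of these p-values thus depends on the method and on the libraries kept.

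Between NPC and NC, Mx1 had the largest log2 fold change upward as well, 0.25 ± 0.07 (SE), or 1.19-fold, with a 95% confidence interval of 0.11 to 0.39 and an edgeR adjusted p of 0.0126. The lowest NPC library, at 9.27 FPKM, was above the highest NC library, at 8.84 FPKM. Among all tested genes 6.45% passed as higher and 11.3% had every NPC library above every NC library. The call rested on single libraries. The log2 fold change was 0.18 without NC replicate 2 (edgeR adjusted p = 0.124) and 0.23 without NPC replicate 2 (edgeR adjusted p = 0.0718). With NC replicates 2 and 3 averaged it was 0.21 (edgeR adjusted p = 0.0622). Over all 21 alternatives it lay between 0.18 and 0.34 with adjusted p from 0.00248 to 0.124, and passed in 18. These include leaving out each WT library, which kept the value at 0.25.

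Slfn4 stood at 43.0, 42.8 and 38.4 FPKM in NPC replicates 1 to 3, at 41.6, 38.3 and 40.2 FPKM in NC replicates 1 to 3, and at 42.9, 43.7 and 42.9 FPKM in WT replicates 1 to 3. NPC replicates 1 and 2 were at the WT level and NPC replicate 3 was at the low end of NC. The NC libraries were all below the WT libraries, whereas the NPC libraries overlapped both groups. Estimated counts were 12097 to 15069 per library, with counting errors under 1%, or up to 1.72% on average in a group at 4 counts a fragment, so the spread of 4.13% in NC and 6.32% in NPC exceeded counting error.

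Against WT, Slfn4 fell by 0.11 on the log2 scale in NC, at 40.0 ± 1.65 FPKM in NC and 43.2 ± 0.490 FPKM in WT (SD, n = 3 each). The SE was 0.040, the 95% confidence interval -0.19 to -0.027, and the edgeR adjusted p 0.0229. Of the tested genes 24.2% passed as lower in this comparison and 30.6% had every NC library below every WT library. The fall did not pass without NC replicate 2 (log2 fold change -0.078, edgeR adjusted p = 0.148) or without WT replicate 2 (-0.099, edgeR adjusted p = 0.0934). Over 21 alternatives the log2 fold change lay between -0.15 and -0.078 with adjusted p from 0.00237 to 0.148, and 16 passed. These include leaving out each NPC library, which kept the value at -0.11.

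In NPC, Slfn4 averaged 41.4 ± 2.62 FPKM (SD, n = 3) and did not pass against WT, with a log2 fold change of -0.060 ± 0.040 (SE), a 95% confidence interval of -0.14 to 0.022 and an edgeR adjusted p of 0.195. With library size set to the table's own count total it passed, at -0.10 (edgeR adjusted p = 0.0235; 0.0235 to 0.866 over the alternatives), but that scaling moved the median of all tested genes by -0.043, about as far as it moved Slfn4. Without NPC replicate 3 the value was -0.0085. Between NPC and NC the log2 fold change of Slfn4 was 0.049 ± 0.040 (-0.033 to 0.13; edgeR adjusted p = 0.453). Without NPC replicate 3 it was 0.10. The intervals of Slfn4 and of Mx1 (0.11 to 0.39) overlap in that comparison.

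Trim25 stood at 25.4, 23.7 and 22.9 FPKM in NPC replicates 1 to 3, at 25.5, 25.3 and 25.9 FPKM in NC replicates 1 to 3, and at 24.8, 24.3 and 25.8 FPKM in WT replicates 1 to 3. The 3 groups overlapped, with NPC replicates 2 and 3 below every other library and NPC replicate 1 among the NC and WT libraries. The counts behind these values were 10823 to 13179 per library.

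Means of Trim25 were 24.0 ± 1.32 FPKM in NPC, 25.6 ± 0.342 FPKM in NC and 25.0 ± 0.791 FPKM in WT (SD, n = 3 each). For NPC against WT the log2 fold change was -0.058 ± 0.039 (SE), with a 95% confidence interval of -0.14 to 0.021 and an edgeR adjusted p of 0.195. For NC against WT it was 0.033 ± 0.039 (-0.046 to 0.11; edgeR adjusted p = 0.517). With library size set to the table's own count total it was -0.0081, a move as large as the median shift of -0.041 over all tested genes under that scaling. For NPC against NC it was -0.091 ± 0.039 (-0.17 to -0.012), with an unadjusted p of 0.0248 and an adjusted p of 0.11 from edgeR, and 25.8% of tested genes had an unadjusted p under 0.05 in this comparison. Without NPC replicate 1 Trim25 passed as lower, at -0.14 against NC (edgeR adjusted p = 0.00952; 0.00952 to 0.492 over the alternatives) and -0.10 against WT (edgeR adjusted p = 0.0182; 0.0164 to 0.634 over the alternatives).

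**Figure D2:**
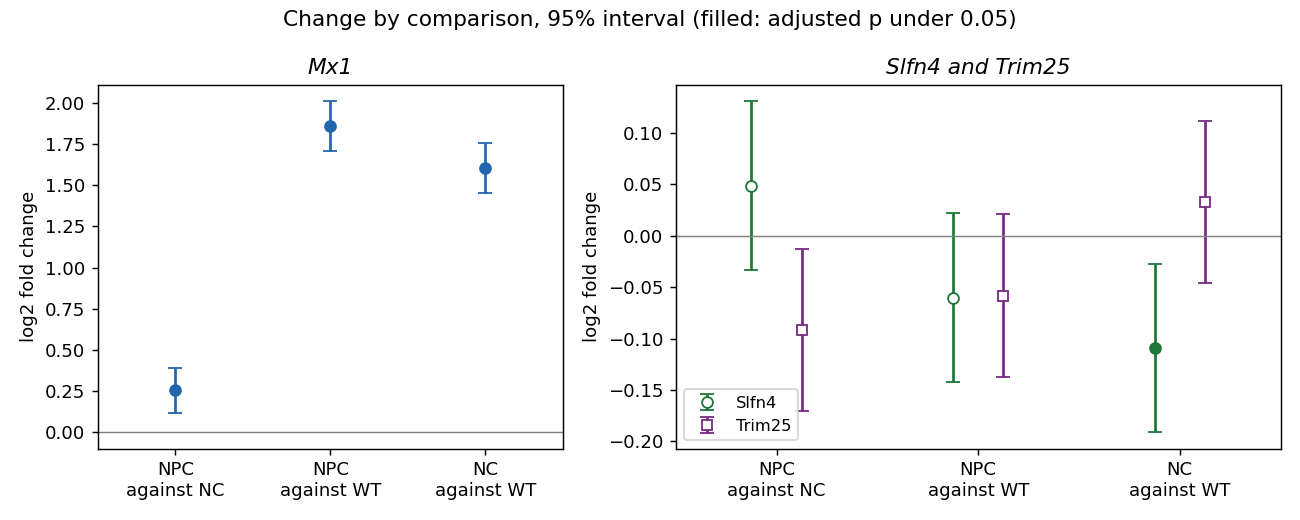
Log2 fold change (vertical axes, which differ in scale) of Mx1 on the left and of Slfn4 and Trim25 on the right for NPC against NC, NPC against WT and NC against WT; bars are 95% confidence intervals of the edgeR fit and filled symbols have an adjusted p under 0.05. Mx1 is at 0.25, 1.86 and 1.61, while no value of Slfn4 or Trim25 is farther from 0 than the -0.11 of Slfn4 in NC against WT.

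As a count, 1 of the 3 members passed for NPC against NC, where 14.5% of tested genes did, and 1 of 3 for NPC against WT, where 64.5% did. For NC against WT 2 of 3 passed, 1 higher and 1 lower, where 27.4% of tested genes passed as higher and 24.2% as lower. The median log2 fold change of the 3 members was 0.049 for NPC against NC, -0.058 for NPC against WT and 0.033 for NC against WT. The median over all tested genes was -0.011, -0.039 and 0.015 in the same order. By rank from the largest rise among 62 genes, Slfn4 stood at 18, 35 and 47 in those comparisons, and Trim25 at 52, 34 and 25.

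**Figure D3:**
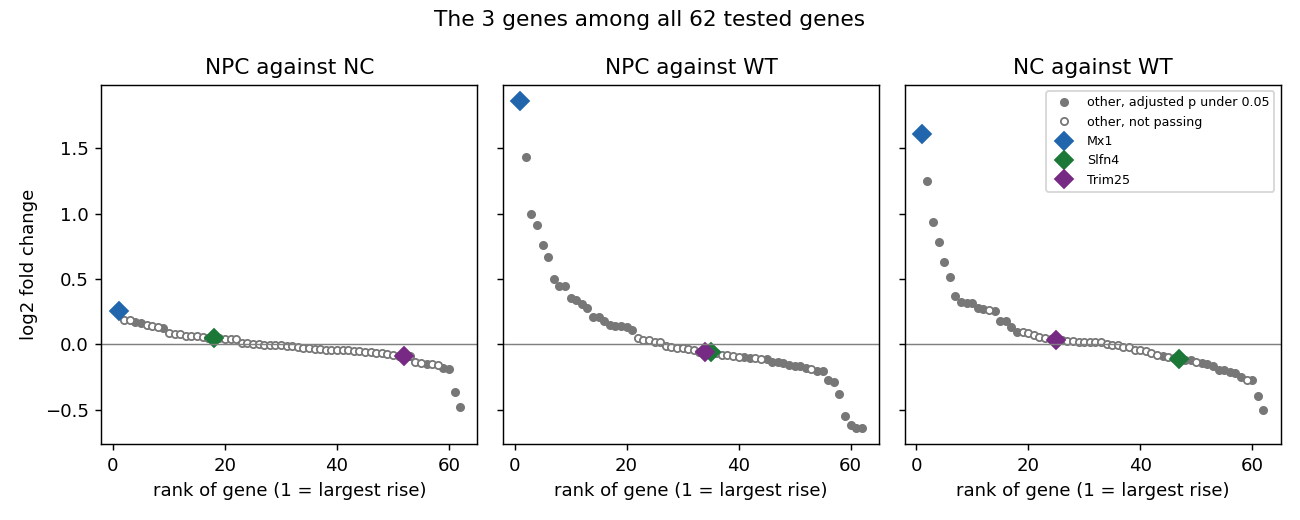
Log2 fold change (vertical axis, shared) of the 62 tested genes against their rank from the largest rise (horizontal axis) in each comparison; diamonds mark Mx1, Slfn4 and Trim25, and filled grey circles are other genes with an adjusted p under 0.05. Mx1 is at rank 1 in each panel, and Slfn4 and Trim25 lie at ranks 18 to 52.

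The unequal change of the members was also measured within each library as a log2 ratio of FPKM values, which does not depend on the library size. Mx1 over Slfn4 was -2.19, -2.14 and -2.05 in NPC, -2.23, -2.44 and -2.35 in NC, and -4.03, -4.07 and -4.06 in WT, for replicates 1 to 3 of each group. No group overlapped another, and how often the ratios of other gene pairs separate in this way was not computed. On the linear scale Slfn4 was 4.14 to 4.57 times the level of Mx1 in NPC, 4.70 to 5.43 times in NC and 16.4 to 16.8 times in WT.

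The Mx1 over Slfn4 ratio was higher by 1.92 ± 0.04 in NPC than in WT (log2 difference ± SE) and by 1.71 ± 0.06 in NC than in WT. The same differences for Mx1 over Trim25 were 1.92 ± 0.06 and 1.57 ± 0.10. Between NPC and NC they were 0.21 ± 0.07 for Mx1 over Slfn4 and 0.35 ± 0.10 for Mx1 over Trim25. In each of these 6 tests all libraries of the first group were above those of the other, and the two-sided exact permutation test gave p = 0.1, the smallest that 3 against 3 libraries allow (0.113 adjusted over the 9 ratio tests). As single genes, 29.0% of those tested lay wholly higher in NPC than in WT, 27.4% in NC than in WT and 11.3% in NPC than in NC. No such share was computed for ratios of other gene pairs.

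Slfn4 over Trim25 was 0.76, 0.85 and 0.75 in NPC, 0.70, 0.60 and 0.63 in NC, and 0.79, 0.85 and 0.73 in WT, as log2 ratios for replicates 1 to 3. NPC and WT overlapped, with a difference of -0.0026 ± 0.05 (exact permutation p = 1). NC lay below both other groups, with a difference of -0.14 ± 0.05 from WT, and the ratio was 0.14 ± 0.05 higher in NPC than in NC (exact permutation p = 0.1 for each, the smallest possible). Here too, no share over other gene pairs was computed.

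**Figure D4:**
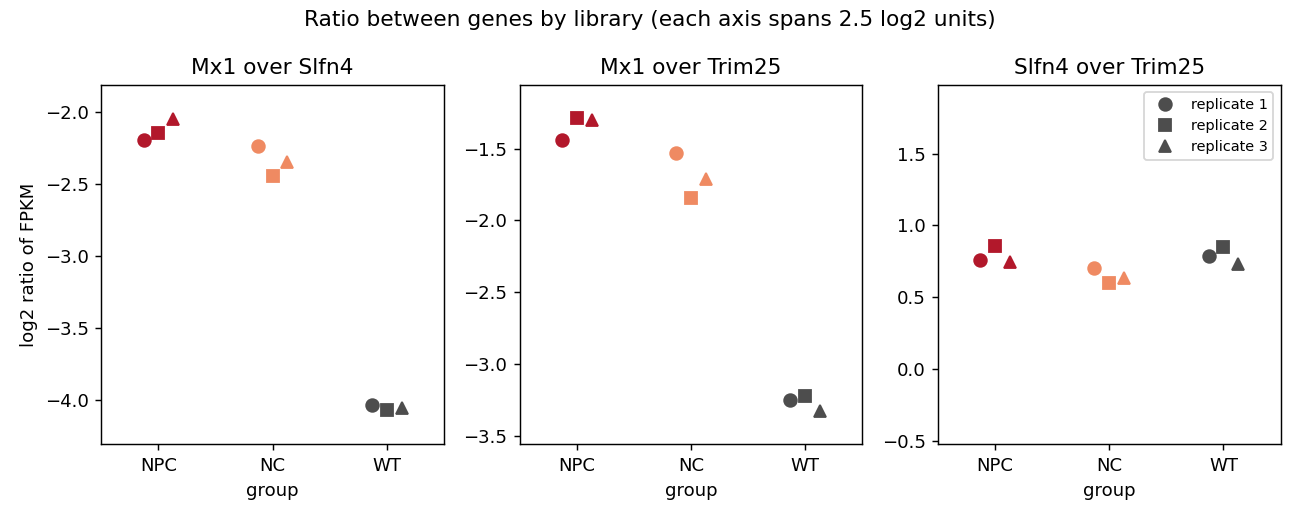
Log2 ratio of FPKM (vertical axes, each spanning 2.5 log2 units) of Mx1 over Slfn4, Mx1 over Trim25 and Slfn4 over Trim25 in each NPC, NC and WT library, shaped by replicate number. Mx1 over Slfn4 lies between -2.44 and -2.05 in NPC and NC libraries and between -4.07 and -4.03 in WT, whereas Slfn4 over Trim25 stays between 0.60 and 0.85 throughout.

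Within groups, Mx1 and Slfn4 had the same order of libraries in NC, with replicate 1 highest and replicate 2 lowest for both. In NPC the highest library was replicate 2 for Mx1 and replicate 1 for both Slfn4 and Trim25, and replicate 3 was the lowest for all 3 genes. Over the 9 libraries the Pearson correlation of log2(FPKM + 1) was -0.49 between Mx1 and Slfn4, -0.19 between Mx1 and Trim25 and 0.19 between Slfn4 and Trim25. With group means removed these values were 0.64, 0.075 and 0.55. They describe 9 libraries whose genes share a depth and a sort.

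The genes whose level pattern over the 9 libraries was most like that of Mx1 were Gm2a, which encodes a lysosomal activator protein, and the integrin genes Itgb2l and Itgb2 (Pearson r = 0.99 each). Itgb2 encodes CD18, the beta chain of the leukocyte integrins. With group means removed, r was 0.44 for Gm2a, 0.87 for Itgb2l and 0.68 for Itgb2, so part of the likeness is the step between groups. For Trim25 the nearest genes were Krit1 (r = 0.87), Rtca, an RNA cyclase gene (0.79), and Galnt1, a glycosyltransferase gene (0.70). For Slfn4 they were Trappc10, of a vesicle-tethering complex (0.58), Myo18a, an unconventional myosin gene (0.58), and C1d (0.56). By this r, which includes the step between groups, neither Slfn4 nor Trim25 was among the 3 nearest genes of another member. Trim25 ranked 30 and Slfn4 40 of the 61 other genes by likeness to Mx1. With group means removed, r with Mx1 was 0.64 for Slfn4, above the 0.44 of Gm2a, and 0.075 for Trim25. Ranks by that measure were not computed.

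The function notes of the table name interferon, viruses or innate immunity for 20 genes, Mx1 and Trim25 among them, whereas the notes for Slfn4 name a response to bacteria. Of the 18 others, 11 were tested and 7 lay below the expression minimum. Of these 11 genes, 6 rose and 3 fell in NPC against WT, where 33.9% of tested genes rose and 30.6% fell. In NC against WT 5 rose and 3 fell, where 27.4% of tested genes rose and 24.2% fell. In NPC against NC 1 fell, where 8.06% of tested genes did. Their median log2 fold change was 0.13, 0.093 and -0.0045 in that order. The notes are broad: 13 of the 18 genes carry only infection pathway maps, such as the integrin genes and Lck.

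The other 5 genes have a gene ontology term of this kind. Myo18a, annotated to a cellular response to interferon gamma, fell to 8.32 ± 0.442 FPKM in NPC and 8.52 ± 0.109 FPKM in NC, against 9.58 ± 0.247 FPKM in WT (SD, n = 3 each). Tspan32, a tetraspanin gene of blood cells annotated to antiviral defence, rose by 0.14 ± 0.04 in NPC against WT (log2 fold change ± SE) and had 0.093 ± 0.043 in NC, which did not pass. Mcts1, a translation factor gene, rose by 0.18 ± 0.07 in both against WT. Mid2, which encodes a TRIM family ligase, had at most 0.0559 FPKM and Tmprss2, a serine protease gene, at most 0.0396 FPKM in any library, and neither was tested.

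In bulk RNA, fewer cells of a type and less RNA per cell cannot be told apart. Marker lists for other blood cells were chosen with earlier results of these data known. They had 1 gene each in the table for neutrophils, monocytes, T and NK cells, erythroid cells and megakaryocytes, and none of these genes was at 0. Itgb2l, the 1 of 11 neutrophil markers, stood at 46.9 to 49.0 FPKM in NPC, 43.4 to 47.9 FPKM in NC and 34.3 to 35.5 FPKM in WT. Lck, the 1 of 10 T and NK cell markers, stood at 4.82 to 6.00 FPKM in NPC, 4.41 to 4.91 FPKM in NC and 2.96 to 3.52 FPKM in WT. Clec10a, the 1 of 11 monocyte and macrophage markers, stood at 1.17 to 1.65 FPKM in NPC, 1.11 to 1.32 FPKM in NC and 0.865 to 1.22 FPKM in WT. In NPC against WT these 3 of the 5 markers rose, as did 33.9% of all tested genes. The log2 fold changes were 0.45 for Itgb2l, 0.67 for Lck and 0.45 for Clec10a, against 1.86 for Mx1. Clec10a passed with an edgeR adjusted p of 0.0204, though its NPC and WT libraries overlapped. In NC against WT Itgb2l rose by 0.37 and Lck by 0.52, against 1.61 for Mx1, and Clec10a did not pass, at 0.26. Of all tested genes 27.4% rose in that comparison. In NPC against NC none of the 3 passed (edgeR adjusted p = 0.175 for Itgb2l, 0.288 for Lck and 0.485 for Clec10a). Gmpr, the 1 of 8 erythroid markers, was lowest in NC as Slfn4 was, at 5.39 to 5.97 FPKM in NPC, 4.88 to 5.16 FPKM in NC and 5.59 to 6.42 FPKM in WT. Gmpr did not pass in NPC against WT, at -0.11 on the log2 scale. In NC against WT Gmpr fell, at -0.25 (edgeR adjusted p = 0.0140), where 24.2% of tested genes did. Alox12, the 1 of 5 megakaryocyte markers, stood at 0.227 to 0.284 FPKM in NPC, 0.231 to 0.256 FPKM in NC and 0.394 to 0.469 FPKM in WT. Every NPC and NC library was thus below every WT library for Alox12, which was under the expression minimum and not tested. Of the tested genes 30.6% had every NC library below every WT library, and the share for NPC is not given here. The part of these cell types in the levels of Mx1, Slfn4 and Trim25 was not tested.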

How the data were processed

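Per the labels' protocols, libraries were paired-end, kept strand by dUTP and were made from poly(A) RNA. The submitters' processing notes name cutadapt 1.9, HISAT2 2.2.1, StringTie 2.1.6, DESeq2, edgeR and GRCm39, with no role. The authors deposited FPKM values and estimated counts per gene and library. The estimated counts are whole numbers whose low values gather at 4 (14 of 891 values equal 4, 0 equal 1), so 1 fragment is taken as about 4 counts. Library size was the depth implied by count over FPKM in 61 genes with at least 200 counts in each library, scaled by 6 single-transcript genes with lengths from a GRCm38 annotation.

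edgeR 4.0.16 (R 4.3.3) fitted group means over all 9 libraries for the 62 genes with at least 1 FPKM in at least 3 libraries; the script was tested on simulated data. Alternatives used limma 3.58.1 (pseudocounts 1 and 0.1), DESeq2 1.42.0, other scalings and filters, counts divided by 4, the 6 libraries compared, a replicate block, NC replicates 2 and 3 averaged, and each library left out. NC replicates 2 and 3 were averaged there because they differed least (chi-square over degrees of freedom 4.98, or 1.24 at 4 counts a fragment), which the inferred scale does not settle. Ratios between genes were compared by exact permutation (scipy 1.17.1). Genes named were the 3 members, listed or annotated interferon genes, and the 3 genes nearest each member by Pearson r. The members and lists were chosen with earlier results of these data known, and the GAAA motif after the promoters were seen.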

Additional observations from a re-analysis of the deposited data

How the results depend on the processing

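Of 189 values of the 3 genes under other settings, 176 kept their direction and their side of the threshold, and the rises of Mx1 against WT passed in all 21 alternatives each. These settings include leaving out libraries of the group not compared. That barely moves a log2 fold change, so the 176 overstate how far the values were challenged. For Slfn4 in NC against WT the log2 fold change was -0.11 without passing in limma with a pseudocount of 1 (adjusted p = 0.084) or 0.1 (adjusted p = 0.106), and -0.094 with NC replicates 2 and 3 averaged (edgeR adjusted p = 0.0749). That averaging also gave 0.21 for Mx1 in NPC against NC, and 4 changed genes there in place of 9. Taking the table's own count total as library size gave -0.10 for Slfn4 and -0.10 for Trim25 in NPC against WT, both passing, and turned Trim25 in NC against WT to -0.0081. This scaling moved the median of all tested genes by -0.043 in NPC against WT and -0.041 in NC against WT, about as far as it moved these values. Log ratios with a pseudocount of 1 fell for NPC against WT to 1.60 for both Mx1 over Slfn4 and Mx1 over Trim25, and for NC against WT to 1.41 and 1.27, since a pseudocount shrinks low values.

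Leaving out each library gave 3 to 15 changed genes for NPC against NC, with 3 without NC replicate 2 or NPC replicate 3, 4 without NPC replicate 2 and 15 without NPC replicate 1. It gave log2 fold changes of 0.18 to 0.34 for Mx1 and -0.14 to -0.058 for Trim25 in NPC against NC, -0.10 to -0.025 for Trim25 in NPC against WT, and -0.14 to -0.078 for Slfn4 in NC against WT. Values that did not pass ran from -0.089 to -0.0085 for Slfn4 in NPC against WT, 0.018 to 0.10 for Slfn4 in NPC against NC and 0.013 to 0.058 for Trim25 in NC against WT.

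Same-numbered libraries did not deviate together (correlations of -0.30 to 0.29 in 9 pairs, 3 above 0.1), so the numbers are not taken as pairs. With the replicate block Mx1 had 0.26, 1.86 and 1.60 in NPC against NC, NPC against WT and NC against WT, and Slfn4 -0.11 in NC against WT; no call on the 3 genes changed, and 9, 40 and 31 genes changed. Depth limits Mx1 in WT most, with 679 to 748 counts a library.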
